A study of Mus musculus with 9 samples.

Results

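The 10 genes Hspa5, Hsp90b1, Dnajb9, Sdf2l1, Calr, Pdia4, Creld2, Fkbp11, Manf and Ddit3 encode chaperones, folding enzymes, a secreted factor and a stress transcription factor of the endoplasmic reticulum (ER), and were followed here in mouse retina after injection of peptides made to bind VEGF, vascular endothelial growth factor. They were found through the RefSeq accession of each array probe, which gave 11 probes for the 10 genes, among 23889 genes tested. All 11 probes were well above background on all 9 arrays, so no gene was lost to a filter. Fkbp11 was selected on its lower signal in the HAN group. Its values in HAN are therefore given as a description with no test, and its PBS arrays are shared with that choice.

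Retinal RNA was measured on 9 single-dye Agilent arrays, 3 for each of 3 groups. The right eyes of adult male C57BL/6 mice received phosphate-buffered saline (PBS), the negative control, or the peptide AAP or HAN by intravitreal injection, and retinas were taken after 7 days. The labels give a dose of 1 µM, which they word for PBS as well. With 12 mice in a group and 4 retinas in a tube, each array holds a pool. The p-values rest on the spread between pools of the same group, estimated over all 9 arrays together. In pools of whole retina, fewer cells of a type and less RNA per cell cannot be told apart.

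Proteins bound for the membrane or for secretion fold in the ER. When folding falls behind, the Hsp70 chaperone BiP (Hspa5) leaves the sensors IRE1, PERK and ATF6, and the transcription factors XBP1, ATF4 and cleaved ATF6 raise the genes of chaperones, of disulfide enzymes and of protein degradation. Photoreceptors carry a heavy folding load, since rods renew rhodopsin every day, and Müller glia secrete growth factors that include VEGF.

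Several of these genes are textbook targets of ATF6 through the ER stress response element, CCAAT and CCACG separated by 9 bases. The promoter windows are shown because this element is what some of the 10 genes share in their sequence. RefSeq promoters of the build GRCm38.p6, running from 250 bases before to 50 bases after a start, were found for 9 of the 10 genes and were searched on both strands. Exact copies of the element stood in the promoters of 4 of these 9 genes, Hspa5, Hsp90b1, Creld2 and Calr. Among all promoters searched, it stood in those of 37 of 27025 genes, and in 0.119% of the 32851 promoters. Since several of the 10 genes are textbook targets through this element, these counts are a description and no test of enrichment. Each window below is written 5′ to 3′ along the gene's strand with 15 bases on either side, and capitals mark the whole element, including its spacer.
Hspa5, chr2:34772010-34772058 (plus strand): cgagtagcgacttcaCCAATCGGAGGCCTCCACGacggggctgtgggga
Hsp90b1, chr10:86705518-86705671 (minus strand): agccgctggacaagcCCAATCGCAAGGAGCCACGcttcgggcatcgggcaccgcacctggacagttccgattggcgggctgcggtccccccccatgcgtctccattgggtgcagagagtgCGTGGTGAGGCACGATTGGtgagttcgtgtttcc
Creld2, chr15:88819505-88819553 (plus strand): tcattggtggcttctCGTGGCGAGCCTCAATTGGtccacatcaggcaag
Calr, chr8:84847060-84847108 (minus strand): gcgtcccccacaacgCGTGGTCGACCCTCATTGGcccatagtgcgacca

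The element of Hspa5 read in the direction of the gene and spanned bases -65 to -47 from the start. Hsp90b1 held 2 copies in opposite orientations, at -212 to -194 and at -107 to -89. In Creld2, at -126 to -108, and Calr, at -162 to -144, the element read on the opposite strand. A shorter motif linked to XBP1, ACGTGG, was present in Dnajb9 and Fkbp11 and in 8.31% of all promoters, and the longer TGACGTGG was in none of the 9 and in 0.676% of all promoters. These are matches of letters, and binding was not measured.

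Values below are log2 processed signals minus the 75th percentile of the array, so 0 is the signal of a probe at that percentile. Over the pairs of arrays, Pearson's r across genes ran from 0.979 to 0.995. The 75th percentile of the signal ran from 1340 (AAP 3) to 2349 (PBS 1) intensity units. The 10 rod markers and the 6 cone markers were well above background on all 9 arrays. Probes differ in how brightly they report a transcript, so the genes are compared across arrays and not with each other.

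Relative to PBS, 9 of the 10 genes had a lower mean in AAP and all 10 had a lower mean in HAN, by small amounts that did not pass the test. The median log2 difference over the 10 genes was -0.14 in AAP and -0.20 in HAN, while over all 23889 genes it was 0.0032 in AAP and 0.0049 in HAN. Fkbp11 was selected on its HAN value, so its lower mean there is no result; without it, 8 of 9 genes had a lower mean in AAP and 9 of 9 in HAN, with medians of -0.14 and -0.20. Lower means were found for 49.1% of all genes in AAP and 48.6% in HAN. By limma with Benjamini-Hochberg adjustment over all genes, 0 of the 10 genes passed an adjusted p of 0.05 in AAP against PBS and 0 of the 9 genes tested in HAN against PBS. At an unadjusted p under 0.05, Manf and Ddit3 were lower in AAP, and Hspa5, Manf and Calr in HAN. In each of these comparisons 0.00419% of all genes were called, which is 1 gene and the same one, the transcript ENSMUST00000072628, with log2 differences of 1.22 and 1.71. Unadjusted, 6.78% of all genes had a p under 0.05 in AAP and 9.66% in HAN. A p that misses the threshold does not show that the values did not differ.

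**Figure D1:**
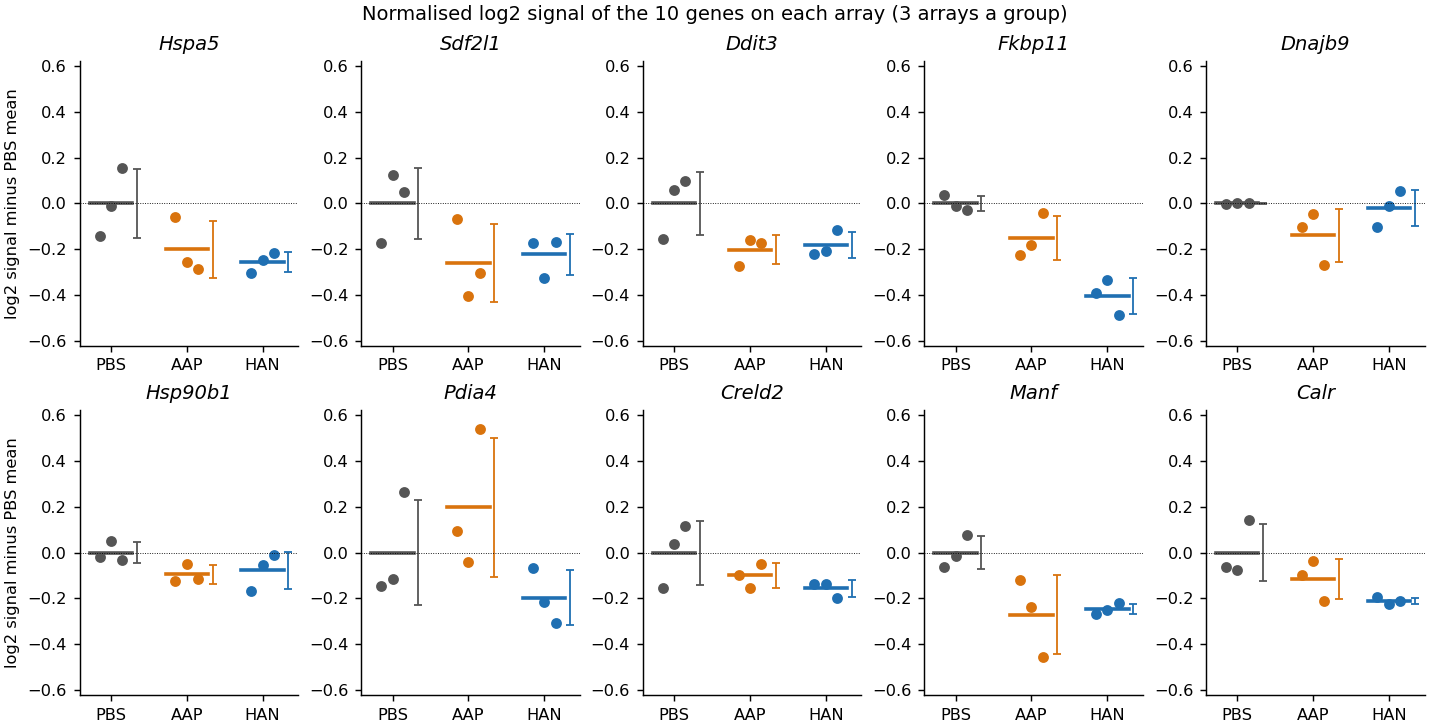
Normalised log2 signal of each of the 10 genes minus its PBS mean (y axis) on the 3 arrays of PBS, AAP and HAN (x axis), with points for arrays, thick lines for group means and thin bars for ± 1 SD. Fkbp11 in HAN, the value it was selected on, lies between -0.49 and -0.33, and Pdia4 in AAP reaches 0.54 on AAP 3.

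Among the Hsp70 and Hsp90 machinery, Hspa5 encodes BiP, the main Hsp70 of the ER. Its signal was 3.59, 3.72 and 3.89 in PBS pools 1 to 3, 3.67, 3.48 and 3.44 in the AAP pools and 3.43, 3.48 and 3.51 in the HAN pools. All 3 HAN pools lay below all 3 PBS pools, while AAP 1 lay between PBS 1 and PBS 2. The log2 difference was -0.26 in HAN (95% interval -0.48 to -0.04, limma adjusted p = 0.474) and -0.20 in AAP (-0.42 to 0.02, limma adjusted p = 0.734). Without PBS 3, the highest control, the AAP value was -0.12. On the linear scale the HAN value is a difference of -16.2%.

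Hsp90b1 encodes GRP94, the ER form of Hsp90, which folds integrins and Toll-like receptors. It read 4.23, 4.30 and 4.22 in PBS, 4.13, 4.20 and 4.13 in AAP and 4.08, 4.19 and 4.24 in HAN. The AAP pools all lay below the PBS pools by a narrow margin, and the HAN pools overlapped them. Its differences of -0.10 in AAP and -0.08 in HAN were the narrowest in interval of the 10, from -0.24 to 0.05 and from -0.22 to 0.07.

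Dnajb9 encodes ERdj4, a J-domain partner of BiP that keeps IRE1 quiet. Its brighter probe read 0.11 on all 3 PBS arrays, 0.01, 0.06 and -0.16 in AAP and 0.01, 0.10 and 0.16 in HAN. The AAP pools were all below PBS, with a difference of -0.14 (-0.31 to 0.03), and the HAN pools lay on both sides, with a difference of -0.02. Without AAP 3, the AAP difference was -0.07. A dimmer second probe disagreed. It read -3.97, -3.74 and -3.90 in PBS, -3.93, -3.95 and -3.80 in AAP and -4.08, -4.05 and -4.11 in HAN, so that on this probe HAN and not AAP lay below PBS, with a difference of -0.21.

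Sdf2l1 encodes a partner of ERdj proteins that keeps misfolded proteins soluble. It read -2.52, -2.22 and -2.30 in PBS, -2.42, -2.75 and -2.65 in AAP and -2.52, -2.68 and -2.52 in HAN. AAP 2, AAP 3 and HAN 2 were below every PBS pool, and PBS 1 stood at the level of HAN 1 and HAN 3. The differences were -0.26 in AAP (-0.52 to 0.0029) and -0.22 in HAN (-0.48 to 0.04).

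Calr encodes calreticulin, the soluble lectin that holds glycoproteins during folding and buffers calcium. PBS pools read 3.02, 3.01 and 3.23, AAP pools 2.99, 3.05 and 2.88, and HAN pools 2.89, 2.87 and 2.88. The HAN pools lay close together and below every PBS pool. The difference in HAN was -0.21 (-0.39 to -0.03, limma adjusted p = 0.475), and that in AAP was -0.12 (-0.30 to 0.07). Without PBS 3, whose value was the highest, these were -0.14 and -0.04, and without AAP 3 the AAP value was -0.07.

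Pdia4, a protein disulfide isomerase also known as ERp72, was the only one of the 10 with a higher mean in AAP than in PBS. It read -1.85, -1.82 and -1.44 in PBS, -1.61, -1.74 and -1.16 in AAP and -1.77, -1.92 and -2.01 in HAN. PBS 3 and AAP 3 stood above the other arrays of their groups, which gave the widest intervals among the 10 genes. The difference was 0.20 in AAP (-0.20 to 0.59) and -0.20 in HAN (-0.59 to 0.20). Single arrays decided these values. In AAP the difference was 0.03 without AAP 3, 0.12 without PBS 1, 0.32 without AAP 2 and 0.33 without PBS 3, and AAP 2 alone gave -0.04. In HAN it was -0.06 without PBS 3.

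Creld2 encodes a secreted and ER-resident protein with disulfide isomerase activity that is induced with BiP. Its signal was 2.39, 2.58 and 2.66 in PBS, 2.44, 2.39 and 2.49 in AAP and 2.41, 2.41 and 2.34 in HAN. PBS 1 was as low as the treated pools, so neither peptide group was apart from PBS. The differences were -0.10 in AAP (-0.28 to 0.08) and -0.16 in HAN (-0.34 to 0.03). Without PBS 3, the HAN value was -0.10.

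Manf encodes a secreted neurotrophic factor that binds BiP and is released when ER calcium falls. Its signal was 0.41, 0.46 and 0.55 in PBS, 0.35, 0.24 and 0.02 in AAP and 0.20, 0.22 and 0.25 in HAN. Every AAP and every HAN pool lay below every PBS pool. The difference was -0.27 in AAP (-0.48 to -0.06, limma adjusted p = 0.687) and -0.25 in HAN (-0.46 to -0.04, limma adjusted p = 0.471). The AAP pools spread widely, with an SD of 0.17 (n = 3), against 0.02 (n = 3) in HAN, and without AAP 3 the AAP difference was -0.18.

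Ddit3 encodes CHOP, the transcription factor that links PERK and ATF4 to cell death. It read 0.40, 0.61 and 0.66 in PBS, 0.28, 0.40 and 0.38 in AAP and 0.34, 0.35 and 0.44 in HAN. AAP lay below PBS, with AAP 2 only just under PBS 1, and HAN 3 overlapped PBS 1. The differences were -0.20 in AAP (-0.39 to -0.01, limma adjusted p = 0.727) and -0.18 in HAN (-0.37 to 0.0089, limma adjusted p = 0.532).

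Fkbp11 encodes an ER prolyl isomerase known from secretory cells such as plasma cells. Its signal was -4.46, -4.51 and -4.53 in PBS, -4.73, -4.69 and -4.54 in AAP and -4.89, -4.84 and -4.99 in HAN. HAN lay below both other groups, which is the pattern it was selected on: the mean differed by -0.40 from PBS, and AAP stood 0.25 above HAN. Against PBS, AAP differed by -0.15 (-0.31 to 0.02, limma adjusted p = 0.734), with AAP 3 next to PBS 3.

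Fkbp11 was a dim spot, and normexp background correction moved its HAN value more than that of any of the other 9 genes. The median pixel intensity of the spot was 143, 131 and 121 units in PBS, 122, 122 and 98.5 in AAP and 111, 111 and 123.5 in HAN, over a local background of 27 to 39.5 units. On HAN 3 the spot was thus as bright as on PBS 3 and AAP 1. Its processed signal was 71.0 units on HAN 3, 83.7 on PBS 3 and 77.5 on AAP 1. Less the local background, the spot median was 108, 100 and 82.5 units in PBS and 75, 79 and 96.5 in HAN. These units are not scaled between arrays. With the normexp correction, which adds an offset of 50 units and so narrows differences of dim spots, the HAN difference from PBS turned to 0.52. In that fit the background mean estimated for HAN 3 was -596 units, against -7.31 to 1.00 on the other 8 arrays. HAN 3 held 6 spots more than 100 units below their local background, and the other arrays held 0. Without those 6 spots, a setting chosen after seeing the data, the estimate for HAN 3 was -8.70, the HAN difference was -0.15 and the AAP difference was 0.04.

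**Figure D2:**
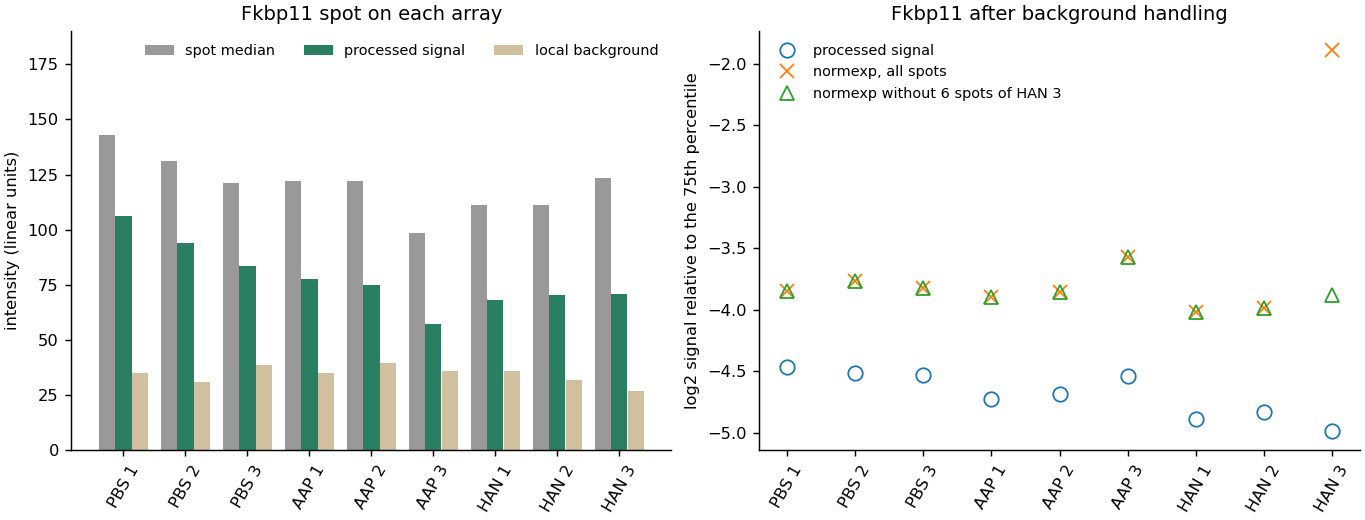
Left, linear intensity of the Fkbp11 spot on each of the 9 arrays, with bars for the spot median, the processed signal and the local background; right, its log2 signal relative to the array's 75th percentile under 3 ways of removing background. The spot median on HAN 3 is 123.5 units, and its normexp value of -1.89 with all spots becomes -3.88 without the 6 spots.

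Groups that did not overlap were counted next. In AAP against PBS, 5 of the 10 genes (Ddit3, Fkbp11, Dnajb9, Hsp90b1 and Manf) had all AAP arrays below all PBS arrays, against 5.53% of all genes. Leaving out Fkbp11 left 4. In HAN against PBS this held for Hspa5, Manf and Calr, 3 of the 9 genes not selected on HAN, against 10.4% of all genes; with Fkbp11 it held for 4. Counted by array, the number of the 10 genes below their lowest PBS value was 6, 7 and 8 on AAP 1 to 3 and 7, 9 and 6 on HAN 1 to 3. Without Fkbp11 it was 5, 6 and 7 of 9 in AAP and 6, 8 and 5 of 9 in HAN. Of all genes, 30.7%, 24.8% and 32.1% lay below their lowest PBS value on the AAP arrays and 33.1%, 31.4% and 24.5% on the HAN arrays. Both comparisons use the same PBS arrays, so they do not support each other. The median of the 10 genes relative to their PBS means was -0.10, -0.0045 and 0.09 on the PBS arrays, -0.10, -0.16 and -0.19 on the AAP arrays and -0.18, -0.22 and -0.21 on the HAN arrays. AAP 1 stood at the level of PBS 1, and the other peptide arrays were lower than all PBS arrays. Leaving out PBS 3, the highest of the controls, gave a median difference in HAN of -0.14. These medians include Fkbp11, which was selected on its HAN value.

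**Figure D3:**
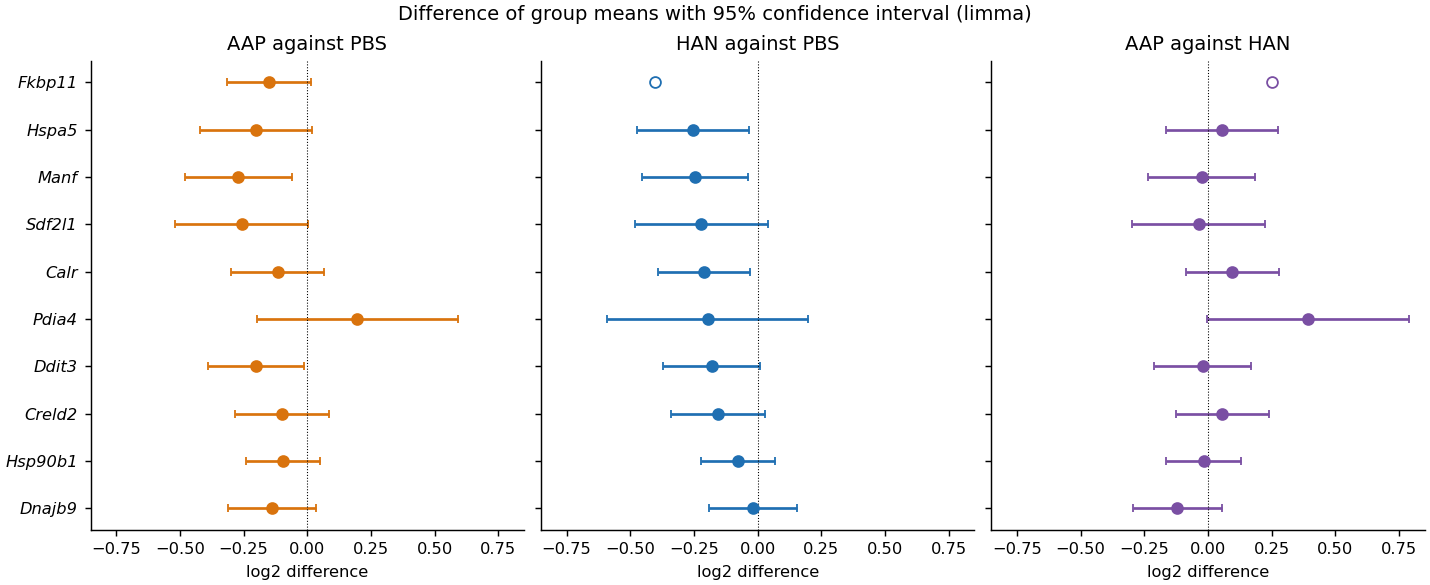
Log2 difference of group means (x axis) for the 10 genes (y axis) for AAP and HAN each against PBS and for AAP against HAN, with 95% limma intervals. Open points without a bar are the values Fkbp11 was selected on; Pdia4 has the widest interval, from -0.20 to 0.59 in AAP.

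No gene separated AAP from HAN by the test. The 9 genes other than Fkbp11 had a median difference of -0.02 between AAP and HAN, and 0 of them passed, with limma adjusted p from 0.574 to 0.932 and 0 with an unadjusted p under 0.05. Over all genes 0 passed, which is 0% of the 23889, and 2039 had an unadjusted p under 0.05. Pdia4 was highest relative to HAN, at 0.39 (-0.0032 to 0.79), and at 0.22 without AAP 3. For Hspa5 the difference was 0.06 (-0.17 to 0.28), for Manf -0.02 (-0.23 to 0.19) and for Ddit3 -0.02 (-0.21 to 0.17).

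The arrays came on 3 slides, per the file headers, and the slides did not hold the groups evenly. Slide 1 held PBS 1 to 3 and AAP 1, slide 2 held AAP 2, AAP 3, HAN 1 and HAN 2, and slide 3 held HAN 3. Within slide 1, AAP 1 differed from the PBS mean by -0.06 for Hspa5, -0.07 for Sdf2l1 and -0.12 for Manf. Over all AAP arrays these values were -0.20, -0.26 and -0.27. Ddit3 differed by -0.27 and Fkbp11 by -0.23 there. The median over the 10 genes was -0.10. PBS and HAN share no slide, and each slide had its own scan. From the PBS and HAN arrays alone, HAN cannot be told apart from slide or scan. A fit with slide as a block reaches HAN against PBS only through the AAP arrays and drops HAN 3. It gave -0.06 for Hspa5, 0.03 for Sdf2l1, -0.03 for Manf, -0.18 for Calr, -0.32 for Ddit3 and -0.48 for Fkbp11. The median was -0.14 over the 10 genes, Fkbp11 among them. Over all genes this fit gave medians of -0.05 in HAN and -0.02 in AAP, both against PBS. Within slide 2, AAP against HAN was 0.0031 for Hspa5 and 0.39 for Pdia4. With slide as a random block, Hspa5 was at -0.23 and Manf at -0.22 in HAN against PBS.

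Across the 9 arrays the 10 genes varied together in part. Over the 45 pairs of genes the median Pearson's r was 0.50, and 40 pairs were positive, as a description over arrays that share groups and slides. The pairs with Fkbp11 draw on the HAN values it was selected on. Hspa5 and Manf were closest at 0.89, and Dnajb9 and Pdia4 were farthest apart at -0.79. After group means were removed the median was 0.13 and 29 pairs were positive. No median was taken over pairs of all genes. Among the r of genes with a curated accession with Hspa5, the others of the 10 stood from percentile 64.1 (Pdia4) to 99.9 (Manf). With Fkbp11 they stood from percentile 33.7 (Dnajb9) to 92.5 (Creld2). Over 15222 genes with a curated accession, those most like Hspa5 over the 9 arrays were Rpl21, a ribosomal protein (r = 0.97), Nup37, a nuclear pore protein (0.96), Hsph1, a cytosolic Hsp110 chaperone (0.96), Slc39a11, a zinc transporter (0.94), and Mrgprb4, a sensory receptor (0.92). For Fkbp11, they were Immp1l (0.95), Nudt5 (0.95), Lst1 (0.94), Notum (0.93) and Zfp872 (0.93). This order rests in part on the HAN values Fkbp11 was selected on, and these genes differed from PBS by -0.22 to -0.35 in HAN.

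The wider pathway was taken from 10 lists of 139 genes, of which 136 were measured. By limma, 0 of the 136 passed in any of the 3 comparisons, and 7, 15 and 4 had an unadjusted p under 0.05 against PBS in AAP, against PBS in HAN, and between the peptides. These are 5.15%, 11.03% and 2.94% of the 136, beside 6.78%, 9.66% and 8.54% of all genes. Lower means were seen for 84 genes in AAP and 95 in HAN, with medians of -0.03 and -0.06. These medians lie nearer to that of all genes than the ones of the 10 genes do.

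**Figure D4:**
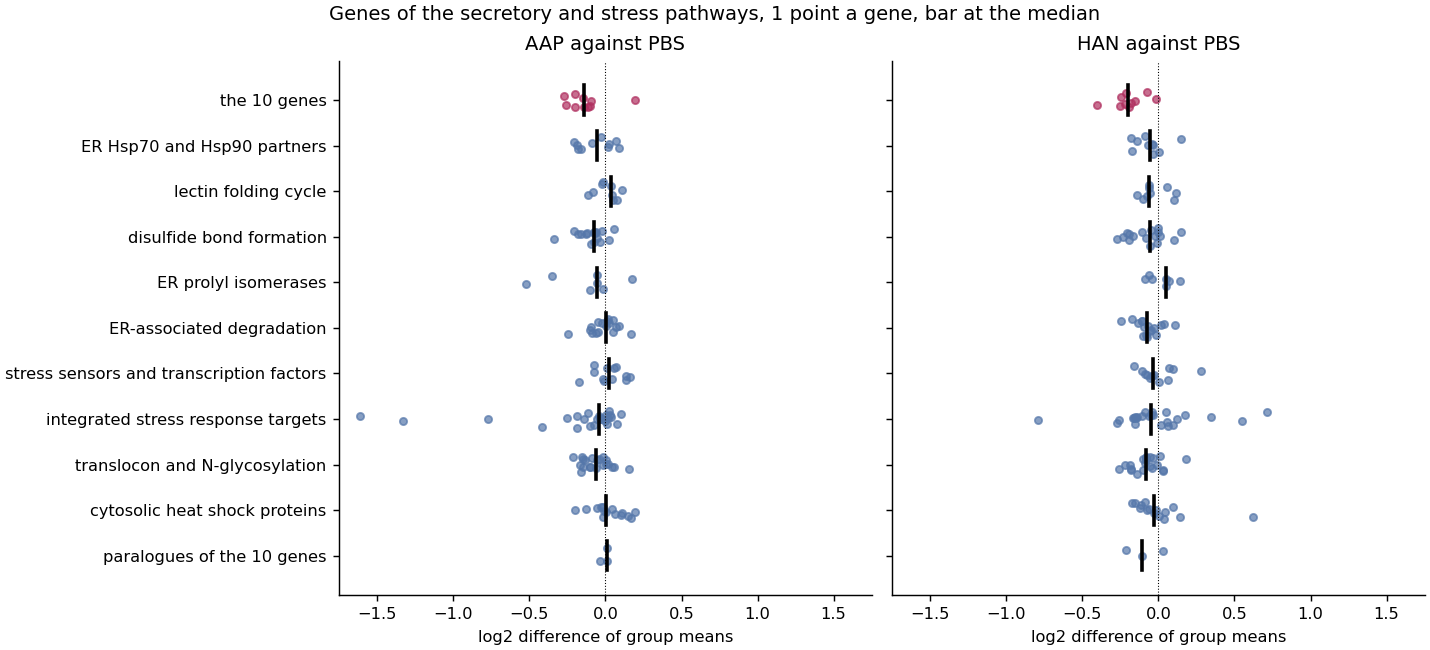
Log2 difference of group means (x axis) of each measured gene in the 10 genes and in 10 lists of the secretory and stress pathways (y axis), for AAP against PBS and HAN against PBS; bars mark medians. The 10 genes have medians of -0.14 and -0.20, and the medians of the lists lie nearer to 0. The points beyond -1 in AAP are Slc7a11 and Nupr1, of which Slc7a11 was well above background on only 2 of the 3 AAP arrays.

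The sensors and transcription factors upstream of the chaperones showed no common direction. Of 12 genes, 5 had lower means in AAP and 7 in HAN. Xbp1, whose spliced form drives chaperone and degradation genes, differed by -0.17 in AAP and -0.11 in HAN (limma adjusted p = 0.779 and 0.774). In AAP it was -0.26 without AAP 1 and -0.10 without AAP 2, and in HAN -0.18 without PBS 1 and -0.06 without PBS 3. Its spliced form was not measured separately. Atf6 differed by -0.08 and -0.07, Ern1 (IRE1) by -0.07 and -0.16, Eif2ak3 (PERK) by 0.0096 and -0.04, and Atf4 by 0.13 and 0.06. For Ern1 the HAN value was 0.07 without PBS 1 and -0.31 without PBS 3. For Atf4 the AAP value was 0.03 without PBS 1, 0.08 without AAP 3 and 0.23 without PBS 3, and a second probe gave 0.09 and -0.06.

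Among partners of the ER Hsp70 and Hsp90, 6 of 10 measured genes had lower means in AAP and 8 of 10 in HAN. An unadjusted p under 0.05 was found for 3 of the 10 in AAP, all lower, and for 3 in HAN, 2 of them lower. Cnpy2, a saposin-like ER protein, read 2.14, 2.27 and 2.22 in PBS, 2.05, 2.04 and 2.02 in AAP and 2.06, 2.10 and 1.96 in HAN. Both peptide groups lay below PBS, with differences of -0.18 and -0.17 (limma adjusted p = 0.687 and 0.465). Cnpy4 differed by -0.21 and -0.18, and Mesd, a chaperone of LDL receptor family proteins, by -0.16 in AAP. Dnajc1 was at 0.15 in HAN. Hyou1, the large Hsp170 that exchanges nucleotide on BiP, differed by 0.09 in AAP and -0.09 in HAN.

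Of the disulfide enzymes, 5 of 17 had an unadjusted p under 0.05 in HAN and 2 of 17 in AAP, all lower, beside 9.66% and 6.78% of all genes. Lower means were found for 15 of the 17 in AAP and 14 in HAN. Pdia6, the P5 isomerase, read 3.87, 3.79 and 4.08 in PBS and 3.71, 3.74 and 3.59 in HAN, a difference of -0.24 with groups that did not overlap (limma adjusted p = 0.469), and -0.15 without PBS 3. Tmx1, a membrane-bound thioredoxin, differed by -0.17 in HAN and -0.12 in AAP, and Selenof by -0.20 in HAN. Pdia3, the partner of calreticulin and calnexin, differed by -0.34 in AAP and Tmx4 by -0.21, or -0.11 without AAP 3. In the lectin cycle 0 of 9 genes had an unadjusted p under 0.05 against PBS, and Canx, the membrane-bound counterpart of calreticulin, was at 0.05 in AAP and 0.10 in HAN.

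Of 17 genes of ER-associated degradation, 8 had lower means in AAP and 14 in HAN. Selenos, part of the Derlin complex, differed by -0.24 and -0.18, with both peptide groups below PBS (limma adjusted p = 0.669 and 0.496). Ube2g2 differed by -0.25 in HAN, but its second probe gave -0.04. Herpud1, a target of all arms of the ER stress response, was at 0.05 and -0.07. In the translocon and glycosylation list 15 of 21 genes had lower means in AAP and 17 in HAN. Its signal peptidase subunit Spcs1 differed by -0.16 and -0.18, and in HAN Sec11c differed by -0.19 (-0.12 without PBS 3) and the ribophorin Rpn1 by -0.18. Of the 7 ER prolyl isomerases other than Fkbp11, 3 had lower means in HAN and 6 in AAP. Fkbp10 differed by -0.52 in AAP, with an interval from -1.21 to 0.17, and by -0.24 without PBS 1 and -0.82 without PBS 2.

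Downstream of PERK and ATF4, Atf3, a transcription factor of stress and injury, had an unadjusted p under 0.05 in both peptide groups. It read -1.17, -0.64 and -0.96 in PBS, -1.41, -1.66 and -2.01 in AAP and -1.82, -2.06 and -1.27 in HAN. Every peptide array lay below every PBS array, with differences of -0.77 (-1.32 to -0.22, limma adjusted p = 0.674) and -0.79 (-1.34 to -0.24, limma adjusted p = 0.431). Cebpb was at -0.41 in AAP, or -0.26 without PBS 1, and Mthfd2 at -0.26 in HAN, or -0.15 without PBS 3. Of the 25 measured targets in this list, 17 had lower means in AAP and 15 in HAN, and Atf3 was the only one with an unadjusted p under 0.05 in either. Slc3a2, the heavy chain of amino acid transporters, differed by -0.24 between AAP and HAN. The widest differences in the list were those of Nupr1 and Slc7a11 in AAP, which were singled out after their values were seen. Nupr1 read 4.53, 1.49 and 3.03 in PBS, 1.38, 3.32 and 0.36 in AAP and 3.98, 3.99 and 3.21 in HAN, a difference of -1.33 in AAP from PBS (-3.42 to 0.76) within overlapping groups. It was low on PBS 2, AAP 1 and AAP 3, the same 3 arrays on which lens markers were low, and the part of lens in it was not tested. Slc7a11 was lowest on these 3 arrays as well, with a difference of -1.62 (-3.83 to 0.60). Its spot was dim, down to -7.47 on AAP 3, and well above background on only 2 of the 3 AAP arrays. AAP 2 alone gave 0.30 for Nupr1 and 0.08 for Slc7a11. With single arrays left out, the AAP value of Nupr1 ran from -2.14 (without AAP 2) to -0.57 (without PBS 1), and that of Slc7a11 from -2.46 to -0.89 without the same arrays. Cytosolic heat shock proteins had 7 and 9 of 15 genes lower. Dnajb1 was at 0.19 in AAP (0.11 without PBS 1), Hsp90aa1 at -0.17 in HAN, and Hsph1 at -0.13 (-0.08 without PBS 3) and -0.15.

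The paralogues of the 10 genes served as a comparison within families. Sdf2, the paralogue of Sdf2l1 that is not induced by ER stress, differed by -0.03 in AAP and -0.11 in HAN (-0.07 without PBS 2). Creld1 differed by 0.0093 in AAP and -0.21 in HAN, so AAP stood 0.22 above HAN (0.13 without AAP 3), and Cdnf, the relative of Manf, by 0.0093 and 0.03. None of the 3 had an unadjusted p under 0.05 in any comparison by limma.

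Markers of microglia and of retinal ganglion cells had the same direction in both peptide groups. Those of muscle, lens, cornea, pigment epithelium and erythrocytes varied widely within some groups. All 12 microglia and macrophage markers had lower means in AAP and in HAN, with median differences of -0.84 and -0.62 from PBS. An unadjusted limma p under 0.05 was found for 9 of them in AAP and 2 in HAN, and 0 passed after adjustment. Their mean relative to PBS was -0.13 to 0.09 on the PBS arrays, -1.35 to -0.43 on the AAP arrays and -1.17 to -0.26 on the HAN arrays. All 8 retinal ganglion cell markers had higher means in AAP and in HAN, with median differences of 0.21 and 0.22 from PBS. By limma, 2 and 3 of them had an unadjusted p under 0.05, beside 6.78% and 9.66% of all genes. Their mean relative to PBS was -0.17 to 0.15 on the PBS arrays, 0.10 to 0.28 on the AAP arrays and 0.17 to 0.28 on the HAN arrays. AAP 1, at 0.10, lay below PBS 3, at 0.15. AAP 3 had the lowest microglial level, the lowest Manf value, the highest Pdia4 value and the lowest 75th percentile of the signal of the 9 arrays. The 12 measured muscle markers averaged 5.38 on AAP 1, 4.13 on AAP 3 and -0.30 on AAP 2, and -0.16 to 0.26 on the PBS arrays. All 12 had higher means in AAP than in PBS, 8 of them with an unadjusted limma p under 0.05. AAP 2 alone gave a median of -0.16 over the 10 genes against PBS, and values of -0.26 for Hspa5 and -0.24 for Manf. Lens markers spanned -2.17 to 1.12 in the PBS arrays, -1.96 to 2.32 in the AAP arrays and 0.49 to 1.39 in HAN, and the 7 cornea and iris markers from -1.17 to 2.03 within PBS. All 16 lens markers had higher means in HAN than in PBS, 0 of them with an unadjusted limma p under 0.05. The 9 measured pigment epithelium markers averaged -0.15 to 0.15 in PBS, -0.62 to 0.07 in AAP and -0.85 to 0.34 in HAN. Lower means than in PBS were found for 4 of them in AAP and 8 in HAN. The 5 measured erythrocyte markers averaged -0.41 to 0.47 in PBS, -0.84 to 0.98 in AAP and -0.23 to -0.06 in HAN. Lower means were found for 5 of them in AAP and 4 in HAN. Markers of Müller glia averaged -0.13 to 0.11 in PBS, -0.52 to -0.11 in AAP and -0.14 to -0.02 in HAN. Rod markers averaged -0.16 to 0.10 in PBS, -0.14 to 0.26 in AAP and -0.22 to -0.11 in HAN, and 9 of the 10 had lower means in HAN than in PBS. For B and plasma cells, 5 of the 10 markers were well above background on all 9 arrays, Tnfrsf17 was not on any, and the mean of the 8 measured ran from -0.19 to 0.40 over the 9 arrays. The part of these cell types in the values of the 10 genes was not tested.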

How the data were processed

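Per the file headers, the authors quantified spots with Agilent Feature Extraction 11.0.1.1 (protocol GE1_1100_Jul11) on a design annotated on mm9, and deposited the processed signal as a linear intensity, background-subtracted within each array, with no scaling across arrays. The value table that the authors deposited equalled the mean processed signal of a probe within a relative tolerance of 1e-04 for at least 99.8% of values in each array, which settles its scale, centring and direction; its column medians ran from 165 to 298. The authors' own test of groups is not given in these sources.

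Control spots and 103 to 160 outlier spots per array were left out (43020 of 44397 spots were not controls). The log2 signal minus the array's 75th percentile was averaged over the spots of a probe. A probe stayed in if 1 group or more had it well above background on each of its arrays (71.6% to 79.2% of spots on an array were), and a gene is its brightest kept probe. Accessions were matched to RefSeq symbols of GRCm38.p6 (26055 of 39429 probes), with no coordinates taken for probes. Differences, 95% intervals and Benjamini-Hochberg adjusted p-values over 23889 genes came from limma 3.58.1 (R 4.3.3), a mean per group over all 9 arrays, two-sided, threshold 0.05, checked on simulated data. The number of arrays limits the precision.

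The 10 genes, the lists and the tests were chosen with earlier results of these data known. Genes outside the 10 were named by rule: up to 3 of each list with the smallest p in each comparison, the main sensors and the paralogues, not all of which are printed; and the 5 genes most correlated with Hspa5 and Fkbp11. Alternatives were normexp (on the median spot signal, in place of the planned mean), quantile normalisation, median centring, other filters and probe summaries, the value table, slide and replicate blocks, and leaving out arrays.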

Additional observations from a re-analysis of the deposited data

How the results depend on the processing

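None of the 10 genes was called under any alternative, Fkbp11 in HAN not being tested. Against PBS the median over the 10 genes stayed below 0 in every setting. It ran from -0.18 to -0.10 in AAP and from -0.26 to -0.14 in HAN. All medians of the 10 genes given here include Fkbp11, so those with HAN draw on the value it was selected on. The settings were not repeated without it. The HAN median was -0.14 with slide as a fixed block. With single arrays left out, the median over the 10 genes ran from -0.26 to -0.14 in HAN, from -0.16 to -0.13 in AAP and from 0.01 to 0.05 in AAP against HAN. Quantile normalisation turned the AAP against HAN median from 0.02 to -0.02. Correlations of deviations between same-numbered arrays ran from -0.28 to 0.40. Arrays with different numbers were not compared, so these values cannot tell whether the replicate numbers pair the pools. With replicate number as a block 0 genes passed in AAP and 0 in HAN against PBS, and no call of the 10 genes changed.

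Over all genes, 0 passed in AAP against PBS under both normexp fits, quantile normalisation, median centring, no filter or AAP 2 alone, and 46 with slide as a fixed block, where AAP 1 alone meets PBS on its slide. In HAN against PBS 0 passed under normexp with all spots and 2 with slide as a fixed block. With single arrays left out the counts were 0 to 12 in AAP (12 without AAP 2), 1 to 3 in HAN and 0 to 13 in AAP against HAN (13 without AAP 2). Normexp with all spots moved the median of all genes to 0.15 in HAN against PBS and -0.12 in AAP against HAN. Slide as a fixed block moved it to -0.02 in AAP and -0.05 in HAN against PBS, and median centring to -0.04 in both.

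These signs turned, and none of those tested passed. Normexp with all spots gave for HAN minus PBS Atf4 -0.16, Atf6 0.031, Cnpy4 0.031, Fkbp11 0.52, Hyou1 0.59, Pdia4 0.019 and Sdf2l1 0.080, for AAP minus PBS Canx -0.023, Creld1 -0.018, Eif2ak3 -0.017 and Fkbp11 0.040, and for AAP minus HAN Ddit3 0.029, Fkbp11 -0.48, Hsp90b1 0.0043 and Manf 0.0070. Normexp without the 6 low spots of HAN 3, chosen after seeing the data, gave for HAN minus PBS Atf4 -0.054 and Hyou1 0.0097, for AAP minus PBS Canx -0.023, Creld1 -0.018, Eif2ak3 -0.017 and Fkbp11 0.040, and for AAP minus HAN Sdf2l1 0.025. Slide as a fixed block gave for AAP minus PBS Canx -0.12, Cdnf -0.0042, Creld1 -0.082, Eif2ak3 -0.029, Herpud1 -0.036 and Xbp1 0.0085, for HAN minus PBS Canx -0.18, Cdnf -0.083, Dnajb9 0.0013, Hsph1 0.020, Sdf2l1 0.033 and Xbp1 0.12, and for AAP minus HAN Ddit3 0.047 and Hsp90b1 0.028. Quantile normalisation gave for AAP minus PBS Cdnf -0.025 and Eif2ak3 -0.0035, for HAN minus PBS Cdnf -0.0034, and for AAP minus HAN Hspa5 -0.0052. Median centring gave for AAP minus PBS Cdnf -0.030, Creld1 -0.030 and Eif2ak3 -0.030, and for HAN minus PBS Cdnf -0.012. Slide as a random block gave for AAP minus PBS Creld1 -0.0069. AAP 2 alone gave for AAP minus PBS Creld1 -0.076, Eif2ak3 -0.084, Hyou1 -0.11, Nupr1 0.30, Pdia4 -0.043, Sdf2 0.025 and Slc7a11 0.079, and for AAP minus HAN Ddit3 0.023, Hsp90b1 0.030, Hspa5 -5e-04 and Manf 0.011. Averaging a gene's probes gave for AAP minus HAN Dnajb9 0.033. With single arrays left out, for AAP minus PBS, Cdnf from -0.030 to 0.051, Creld1 from -0.079 to 0.076, Eif2ak3 from -0.056 to 0.056, Ern1 from -0.23 to 0.16, Hyou1 from -0.024 to 0.20 and Sdf2 from -0.076 to 0.0076 were the ranges. Likewise, for HAN minus PBS, Atf4 from -0.036 to 0.16, Cdnf from -0.062 to 0.079, Dnajb9 from -0.055 to 0.022, Ern1 from -0.31 to 0.072 and Hyou1 from -0.21 to 0.018 were the ranges. Likewise, for AAP minus HAN, Ddit3 from -0.043 to 0.015, Hsp90b1 from -0.062 to 0.015, Hspa5 from -0.016 to 0.098, Manf from -0.10 to 0.068 and Sdf2l1 from -0.13 to 0.036 were the ranges. Apart from the normexp fit of HAN 3, the cause was not tested.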
